A study of Homo sapiens with 2 samples.

Results

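The replication-dependent histone genes were the rows of the gene table whose symbol begins with HIST1H to HIST4H, without rows named PS for pseudogene. The rule gave 76 rows of the 50867 in the table, and 6 of them were pseudogenes by their deposited description, which left 70 genes. They were 6 H1, 17 H2A, 18 H2B, 14 H3 and 15 H4 genes. By cluster, 55 lay in HIST1 on chromosome 6, 11 in HIST2 and 3 in HIST3 on chromosome 1, and 1, HIST4H4, on chromosome 12 (GRCh38). Copies of HIST2 with identical coding sequence were summed, so the 70 genes gave 67 units. By the labels, total RNA came from HCT116, an established human colorectal carcinoma line. The cells were transfected with an siRNA against PHF5A (1 library) or with a control siRNA (1 library). PHF5A belongs to SF3b, a splicing complex that recognises the branch point of introns. The siRNA's effects on other transcripts cannot be told apart from those of less PHF5A. Since each group was 1 library, nothing could be tested across samples, and differences are described without p-values. Intervals beside ratios are 95% exact (Clopper-Pearson) intervals for counting error only.

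Replication-dependent histones are made in bulk during S phase, when new DNA has to be wrapped into nucleosomes. H2A, H2B, H3 and H4 form the core of the nucleosome, and H1 binds the linker DNA between cores. Their genes lie in clusters, mostly lack introns, and make mRNAs that usually end in a conserved stem-loop bound by SLBP in place of a poly(A) tail. Neighbouring H2A and H2B genes are often transcribed away from each other out of 1 shared promoter.

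In the GENCODE release 29 transcripts, 32 of the 70 genes had a model with a stem-loop of 16 bases, which began 22 to 67 bases after the stop codon (median 35.5). The search used 1 fixed sequence pattern, so other forms would be missed. The other 38 genes had no match in their models, and 34 models ended at the stop codon. HIST1H1E, HIST1H1T and HIST1H4C had no match although their models run 51 to 57 bases past the stop codon. HIST1H2BJ had none either, although its longest model runs 569 bases past the stop codon. The matches took 6 forms of the stem-loop, shown because they are the element that sets these mRNAs apart. Each is given in DNA letters for 1 gene, 5′ to 3′, with the stem-loop in capitals and its flanks in lower case.
HIST2H2AA3: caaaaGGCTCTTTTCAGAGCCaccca
HIST1H2BC: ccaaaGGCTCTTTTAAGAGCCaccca
HIST1H4E: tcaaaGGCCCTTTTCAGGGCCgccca
HIST2H4A: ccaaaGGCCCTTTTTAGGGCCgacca
HIST1H3E: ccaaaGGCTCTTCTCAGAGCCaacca
HIST1H2AG: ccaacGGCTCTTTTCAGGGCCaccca
The form shown for HIST2H2AA3 was held by 17 genes, 6 of H2A, 8 of H2B and 3 of H3. The form of HIST1H2BC was held by 5 genes of H2B and H3, that of HIST1H4E by 5 H4 genes and that of HIST2H4A by 3 H4 genes. The forms of HIST1H3E and HIST1H2AG were each found in 1 gene.

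The promoter windows, 250 bases before each start in RefSeq on GRCh38.p14, matched 65 of the 70 genes. A TATA box (TATAAA, either strand) stood in 67.7% of them, against 11.1% of the 27305 windows of all RefSeq genes. A CCAAT box (CCAAT, either strand) stood in 84.6%, against 33.0% of all windows. The octamer (ATTTGCAT, either strand) stood in 38.5%, against 1.66%. It was in 11 of 16 H2A windows and 14 of 18 H2B windows, and in none of the H1, H3 or H4 windows. The CCAAT box was in every H1, H2A, H2B and H3 window but in 3 of 13 H4 windows. For H2A and H2B genes that face away from each other, windows can hold the same bases between the starts. A match there was counted for both genes, such as the octamer between HIST2H2AC and HIST2H2BE. H2A and H2B matches are therefore not all separate sites, and the shares count windows rather than sites. A match is a description of the letters in the window, not a bound site.

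There were 11 pairs of an H2A and an H2B gene with starts 193 to 247 bases apart and facing away from each other. The bases between both starts are given for 3 pairs that differed in how their H2A and H2B ratios lay to each other, from the plus strand of RefSeq GRCh38.p14, with TATA, CCAAT and octamer matches of either strand in capitals. The HIST1H2AM and HIST1H2BO stretch is chr6:27893186-27893424, that of HIST2H2AC and HIST2H2BE is chr1:149886683-149886917, and that of HIST1H2AJ and HIST1H2BM is chr6:27814778-27815021.
HIST1H2AM / HIST1H2BO: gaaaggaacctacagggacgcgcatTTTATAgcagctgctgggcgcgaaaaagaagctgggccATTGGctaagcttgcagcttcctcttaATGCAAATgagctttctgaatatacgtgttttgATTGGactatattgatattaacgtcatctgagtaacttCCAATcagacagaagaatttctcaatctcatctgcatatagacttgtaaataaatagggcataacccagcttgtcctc
HIST2H2AC / HIST2H2BE: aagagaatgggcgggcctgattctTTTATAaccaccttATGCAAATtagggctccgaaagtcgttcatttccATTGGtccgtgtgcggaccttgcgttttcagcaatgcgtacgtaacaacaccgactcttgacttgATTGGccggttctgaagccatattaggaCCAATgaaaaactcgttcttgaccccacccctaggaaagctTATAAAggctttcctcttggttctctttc
HIST1H2AJ / HIST1H2BM: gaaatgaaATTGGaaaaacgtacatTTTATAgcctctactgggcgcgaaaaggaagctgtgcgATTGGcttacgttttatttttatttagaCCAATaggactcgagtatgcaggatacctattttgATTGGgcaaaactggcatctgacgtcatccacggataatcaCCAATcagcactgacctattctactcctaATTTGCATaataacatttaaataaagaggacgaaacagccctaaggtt
Each of these 3 stretches held 1 octamer, and each held at least 3 CCAAT boxes. No match overlaps another in these stretches.

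The knockdown library held 25897412 counts and the control library 26552789. PHF5A itself had 91 counts in the knockdown library and 367 in the control library, 2.31 against 9.07 FPKM (fragments per kilobase of row length and per unit of depth). In the knockdown library its share of counts was 3.93-fold lower (interval 3.12 to 5.0). Rows that reached 1 FPKM in either library were taken as expressed. Over these 8957 rows, the median log2 ratio of knockdown to control, with 1 added to each FPKM, was -0.15 and the SD over rows was 0.63. Protein-coding rows took 70.2% of the knockdown counts and 78.4% of the control counts. Rescaling each library to an equal FPKM sum (TPM) moved the median of all expressed rows to -0.47. Histone ratios are therefore also given relative to these medians. Both medians have 1 added to each value, and the TPM median covers 9664 rows, while the sums have nothing added. TPM multiplies each library by 1 factor. Sums relative to the 2 medians thus differ through the added 1, the rows covered and the use of counts or FPKM. Of 10 epithelial and colorectal markers, 6 were expressed, among them KRT8, KRT18, EPCAM and CDX2, while CDX1 and KRT20 were at 0 in both libraries and VIL1 and LGALS4 had at most 2 counts. No blood marker of 4 was expressed. The 10 heart muscle markers summed to 281 counts in the knockdown library and 95066 in the control library, 2.33 against 259 FPKM, with 5 of them at 0 in the knockdown library and none at 0 in the control. The control library thus held heart muscle RNAs that its label, a colorectal line, does not account for, and their source is unknown. The part of their source in the ratios of the histone genes and of the other gene lists was not tested. In bulk RNA, fewer cells in S phase and less histone mRNA per cell cannot be told apart.

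Histone mRNAs were abundant in both libraries and kept close to the same share of the counts. The 70 genes took 360074 counts in the knockdown library, 1.39% of the library, and 383431 in the control library, 1.44%. The ratio of these shares was 0.963 (interval 0.958 to 0.967), a log2 ratio of -0.05. Relative to the median of expressed rows the sum was 0.09 higher on the log2 scale in the knockdown library. Against the TPM median it was -0.03, so its direction depended on how the sums and medians were taken. Of the 67 units, 50 were expressed and 17 stayed below 1 FPKM in both libraries. By the higher library, 6 units reached at least 1000 FPKM, 28 lay from 100 to under 1000, 10 from 10 to under 100 and 6 from 1 to under 10 FPKM.

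None of the 50 expressed units was 2-fold or more higher in the knockdown library, and none was 2-fold or more lower. The share of all expressed rows past these thresholds was 2.53% higher and 6.2% lower. At 1.5-fold, 3 units were higher (HIST1H3C, HIST1H4E and HIST4H4) and 2 lower (HIST1H2AM and HIST1H2BJ), where all expressed rows had 8.45% higher and 18.2% lower. Centred on the median of expressed rows, still 0 units passed 2-fold in either direction, against 3.85% of all rows higher and 4% lower. At 1.5-fold, centring gave 7 units higher and 0 lower, against 12.8% of all rows higher and 12.6% lower. With TPM scaling 4 units, HIST1H2AM, HIST1H2BJ, HIST1H2BO and HIST1H3G, were 2-fold or more lower, and none was higher, against 14.5% of all rows lower and 1.11% higher. The log2 ratios of the units ran from -0.62 to 0.67 with an SD of 0.35 over units. Their median was -0.05, which is 0.10 above the median of all expressed rows. By counting error alone, 19 units had an interval above a ratio of 1, 24 had one below 1 and 7 held 1. At this scaling 43 of the 50 units thus differed between the libraries beyond counting error, while variation between cultures is unknown. The share of all expressed rows with such an interval was not computed, so this count shows nothing particular to histones. High expression goes with less counting noise, and the 263 other rows of at least 100 FPKM had a median of -0.06, with 11.4% of them higher and 19.0% lower by 1.5-fold or more.

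**Figure D1:**
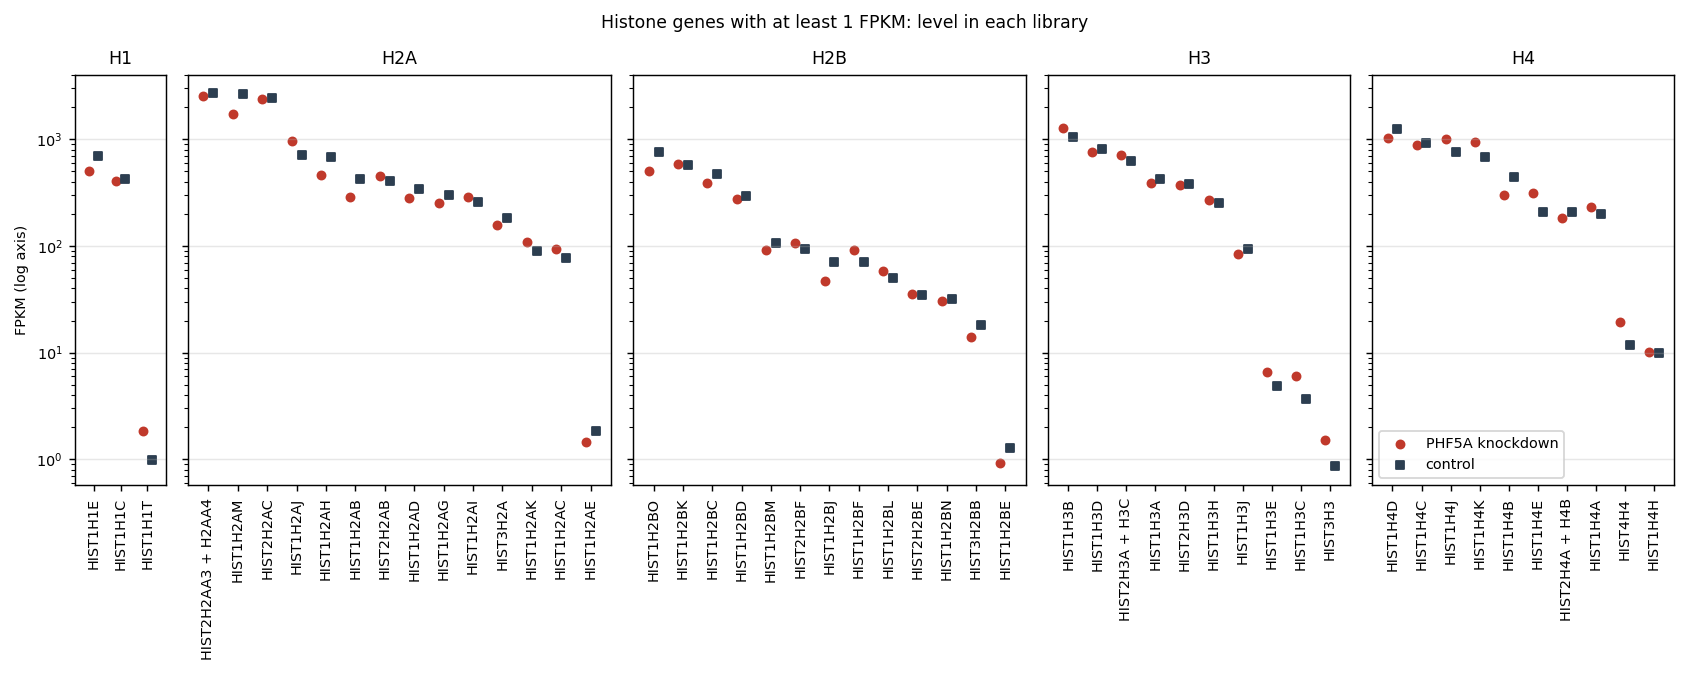
Level of each expressed histone unit in the knockdown library (red circles) and the control library (dark squares), in FPKM on a log axis, by histone class and in order of the control level. Levels ran from about 1 FPKM to 2573 FPKM in the knockdown library, for HIST2H2AA3 and HIST2H2AA4 summed, and as deposited no unit differed 2-fold between the libraries.

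H1, the linker histone, was the class with the lowest sum ratio. Its 6 genes had 16703 counts in the knockdown library and 21360 in the control library, a ratio of 0.802 (0.786 to 0.818). This was -0.17 on the log2 scale relative to the expressed median and -0.25 relative to the TPM median. HIST1H1E (ENSG00000168298, chromosome 6, 26156354 to 26157107) carried most of it, with 9965 counts in the knockdown library and 14066 in the control, 510 against 703 FPKM and a log2 ratio of -0.46. HIST1H1C was the other abundant H1 gene, with 6704 against 7271 counts, 403 against 426 FPKM and a log2 ratio of -0.08. Without HIST1H1E, the log2 ratio of the H1 sum was -0.08, so the class sum rested on that gene. HIST1H1T, known as a testis H1, had 34 counts in the knockdown library and 19 in the control (ratio 1.83, interval 1.02 to 3.40). HIST1H1B had 0 against 3 counts, HIST1H1D 0 against 1 and HIST1H1A 0 in both libraries.

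H2A, which with H2B forms the dimers on the outer part of the nucleosome core, was the most abundant class, with 137542 counts in the knockdown library and 155533 in the control. The ratio of shares was 0.907 (0.900 to 0.913), 0.01 relative to the expressed median and -0.11 relative to the TPM median on the log2 scale. Of its 16 units 14 were expressed, with a median log2 ratio of -0.15. The highest was the pair HIST2H2AA3 and HIST2H2AA4, at 2573 FPKM in the knockdown library and 2708 FPKM in the control (log2 ratio -0.07). HIST2H2AC (ENSG00000184260, chromosome 1, 149886975 to 149887364) stood at 2414 against 2449 FPKM (log2 ratio -0.02). These abundant HIST2 units were level between the libraries within a few percent. HIST1H2AM (ENSG00000278677, chromosome 6, 27892757 to 27893149) had the lowest log2 ratio of the 50 expressed units, with 17640 counts in the knockdown library and 27778 in the control, 1733 against 2662 FPKM and a log2 ratio of -0.62. HIST1H2AH had 465 FPKM in the knockdown library and 690 in the control (-0.57), and HIST1H2AB 286 against 421 FPKM (-0.55). HIST1H2AJ (ENSG00000276368, chromosome 6, 27814354 to 27814740) went the other way, with 9733 counts in the knockdown library and 7305 in the control, 971 against 711 FPKM and a log2 ratio of 0.45. HIST2H2AB had 456 against 410 FPKM (0.16), and HIST1H2AC, whose mRNA model runs on past the stem-loop, had 94.2 against 77.4 FPKM (0.28). Within H2A the genes thus spread over more than 1 log2 unit, with HIST1H2AM and HIST1H2AJ at the ends.

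H2B had 60449 counts in the knockdown library and 67143 in the control, a ratio of 0.923 (0.913 to 0.933), which was 0.03 relative to the expressed median and -0.15 relative to the TPM median. Of 18 units 13 were expressed, with a median log2 ratio of -0.08. HIST1H2BK stood at 585 FPKM in the knockdown library and 570 in the control (0.04). HIST1H2BO (ENSG00000274641, chromosome 6, 27893463 to 27893843) stood at 502 against 753 FPKM (-0.58), and HIST1H2BJ (ENSG00000124635) at 46.5 against 70.6 FPKM (-0.59). HIST1H2BC had 391.5 against 471 FPKM (-0.27) and HIST1H2BD 278 against 294 FPKM (-0.08). The H2B gene with the highest ratio was HIST1H2BF, at 91.6 against 70.3 FPKM (0.38). FPKM depends on the row's length, and the H2B rows differ in it: HIST2H2BF, with an implied length of 4.57 kb, had 106 FPKM in the knockdown library and 94.6 in the control, but 484 against 433 CPM (its share of the library's counts). By CPM it lay nearer to HIST2H2AC, a row of 0.390 kb with 942 against 955 CPM, than FPKM shows.

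H3, which carries many of the marks placed on histone tails, had 71565 counts in the knockdown library and 67645 in the control, a ratio of 1.08 (1.07 to 1.10). On the log2 scale this was 0.27 relative to the expressed median and 0.14 relative to the TPM median, while without centring the TPM ratio was -0.33. Of 10 expressed units 9 lay above the expressed median, as did 32 of all 50 histone units, and the median of the 10 was 0.14. With TPM, HIST1H3D (-0.50) and HIST1H3A (-0.52) lay below the median of all rows (-0.47). HIST1H3B, HIST1H3C, the HIST2H3A and HIST2H3C pair, HIST2H3D and HIST3H3 lay above it. HIST1H3B (ENSG00000274267, chromosome 6, 26031650 to 26032060) was the most abundant per length, with 13542 counts in the knockdown library and 11508 in the control, 1272 against 1054 FPKM and a log2 ratio of 0.27. The pair HIST2H3A and HIST2H3C held the most counts, 30553 against 27513, at 712 against 626 FPKM (0.19). Without that pair the log2 ratio of the H3 sum was 0.07. HIST1H3D stood at 761 against 805 FPKM (-0.08), HIST1H3A at 393 against 422 FPKM (-0.10) and HIST2H3D at 370 against 380 FPKM (-0.04). HIST1H3C, a gene near the low end, had 64 counts in the knockdown library and 40 in the control, 6.01 against 3.67 FPKM (0.59), and its interval of 1.09 to 2.50 was wide. HIST3H3, known from testis, had 19 against 11 counts, a ratio whose interval held 1.

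H4, the partner of H3 in the tetramer at the centre of the nucleosome, had 73815 counts in the knockdown library and 71750 in the control, a ratio of 1.05 (1.04 to 1.07). On the log2 scale this was 0.22 relative to the expressed median and 0.12 relative to the TPM median, while without centring the TPM ratio was -0.35. The 10 expressed units had a median of 0.11, and 7 lay above the expressed median. All H4 genes encode nearly the same protein, yet the counts of their rows differed in both directions. The rows differ in implied length, with 4.70 kb for HIST4H4 and 1.49 kb for HIST1H4E against 0.312 kb for HIST1H4D. The part of longer or other transcripts in these counts was not tested. HIST4H4 (ENSG00000197837, chromosome 12, 14767999 to 14771131), the lone gene outside the clusters on chromosomes 1 and 6, had 2369 counts in the knockdown library and 1480 in the control, 19.5 against 11.9 FPKM and the highest log2 ratio of the expressed units, 0.67. HIST1H4E (ENSG00000276966, chromosome 6, 26204552 to 26206038) had 12216 against 8242 counts and 317 against 209 FPKM (0.60). HIST1H4J and HIST1H4K have the same coding sequence and together had 17333 against 13206 counts, a ratio of 1.35 (1.32 to 1.38). As single rows HIST1H4J stood at 1005 against 757 FPKM (0.41) and HIST1H4K at 943 against 689 FPKM (0.45). In the opposite direction, HIST1H4B stood at 303 FPKM in the knockdown library and 445 in the control (-0.55), and HIST1H4D at 1029 against 1246 FPKM (-0.28). HIST1H4C stood at 884 against 922 FPKM (-0.06).

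**Figure D2:**
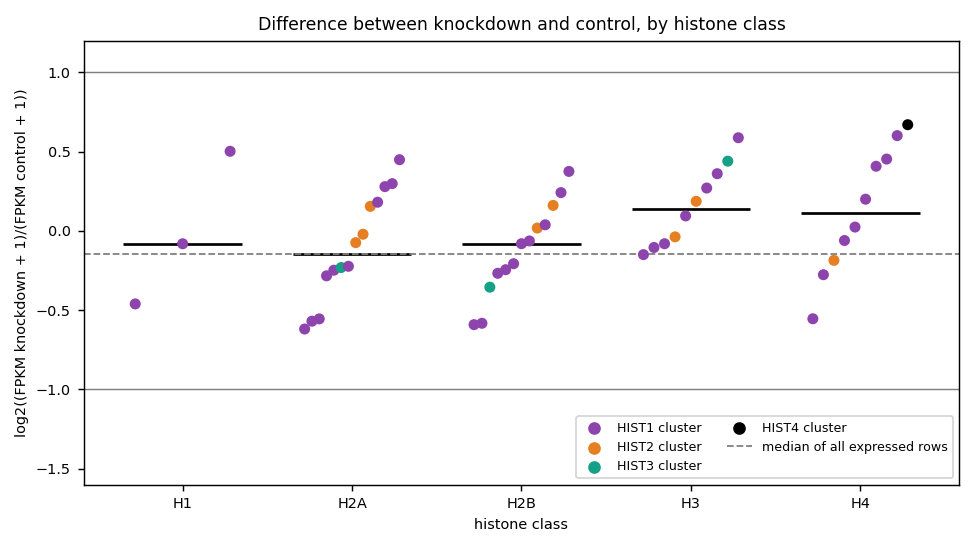
Log2 ratio of knockdown to control FPKM (1 added to each) for the 50 expressed units by histone class, coloured by cluster, with the class median as a black bar, the median of all expressed rows (-0.15) dashed and the 2-fold thresholds as grey lines. As deposited, no unit reached a 2-fold threshold, and 9 of 10 H3 units and 32 of all 50 units lay above the dashed line.

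By cluster, the HIST2 units on chromosome 1 lay closer together than the HIST1 units, a difference in spread that was not tested. Copies were summed only in HIST2, while HIST1 rows that share windows stayed apart. HIST1 also held expressed units of low counts, such as HIST1H2AE with 19 in the knockdown library and 25 in the control. The lowest HIST2 unit, HIST2H2BE, had 2414 against 2443. The part of these differences in the spread was not tested. The 11 HIST2 genes had 133161 counts in the knockdown library and 135839 in the control, a ratio of 1.01 whose interval of 0.998 to 1.01 held 1. The 8 HIST2 units ran from a log2 ratio of -0.19 to 0.19, with an SD of 0.13 over units. The 38 expressed HIST1 units had an SD of 0.36 and ran from -0.62 to 0.60, and the HIST1 sum was 220029 against 240576 counts, a ratio of 0.938 (0.932 to 0.943). The 3 HIST3 genes summed to 4515 counts in the knockdown library and 5536 in the control (0.836, interval 0.804 to 0.870), with HIST3H2A at 157 against 184 FPKM and HIST3H2BB at 14.1 against 18.4 FPKM. The HIST1 sum was 0.06 relative to the expressed median and -0.06 relative to the TPM median, the HIST2 sum 0.16 and 0.04, and the HIST3 sum -0.11 and -0.19.

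The identical copies of HIST2 showed how counts were split between rows. HIST2H2AA3 had 10253 counts in the knockdown library and 36 in the control, and HIST2H2AA4 27052 against 40522. Read alone, HIST2H2AA3 would be far past 2-fold higher and HIST2H2AA4 lower, whereas their sum of 37305 against 40558 counts had a ratio of 0.943 (0.930 to 0.956). HIST2H4A had 17350 against 16843 counts and HIST2H4B 32 against 3210, and their sum of 17382 against 20053 had a ratio of 0.889 (0.871 to 0.907). HIST2H3A had 27174 against 24325 counts and HIST2H3C 3379 against 3188, a split that was nearly the same in both libraries. In GENCODE release 29 transcripts, 5 of the 70 genes had every window of 75 bases in another gene as well, 15 had over 50% of their windows shared and 41 shared none. HIST1H2AM shares windows with HIST1H3J, whose model reaches into it, and summed with it had 19691 against 30113 counts, a ratio of 0.670 (0.658 to 0.683). HIST1H2AI and HIST1H2AJ share windows with each other and together had 13519 against 10727 counts, a ratio of 1.29 (1.26 to 1.33). HIST1H2AD and HIST1H3D both overlap the row RP1-34B20.21. The 3 rows together had 12974 against 14995 counts, a ratio of 0.887 (0.866 to 0.908). Relative to the median of expressed rows, the log2 ratio was -0.43 for HIST1H2AM with HIST1H3J, 0.52 for HIST1H2AI with HIST1H2AJ and 0.58 for HIST1H4J with HIST1H4K. For HIST1H2AD and HIST1H3D with RP1-34B20.21 it was -0.02. Of the 70 genes, 24 overlapped another row of the deposited table. Whether counting used strand is not known here, so reads of overlapping genes may be split between rows.

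Along chromosome 6, low HIST1 genes stood in runs. The first 3 genes in order, HIST1H2AA, HIST1H2BA and HIST1H1A, had 0 counts in both libraries. Between HIST1H4E and HIST1H4H lay a stretch of 10 genes, HIST1H2BG to HIST1H2BI (26215159 to 26273356), where the highest level was 6.55 FPKM in the knockdown library and 4.88 FPKM in the control, both for HIST1H3E. Of these 10 genes 8 were below 1 FPKM in both libraries. Another stretch of 4 genes, HIST1H2AL to HIST1H4L (27865355 to 27873510), had 1 count in the knockdown library and 5 in the control. In order of start the stretch lies between HIST1H2AK, at 110 against 89.2 FPKM, and HIST1H3J, at 84.9 against 94.2 FPKM. The HIST1H2BN row (27837760 to 27865798), with 5492 against 5891 counts, covers HIST1H2AL on the same strand. Reads of HIST1H2AL may thus have been counted for HIST1H2BN. These stretches were chosen after their values were seen.

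**Figure D3:**
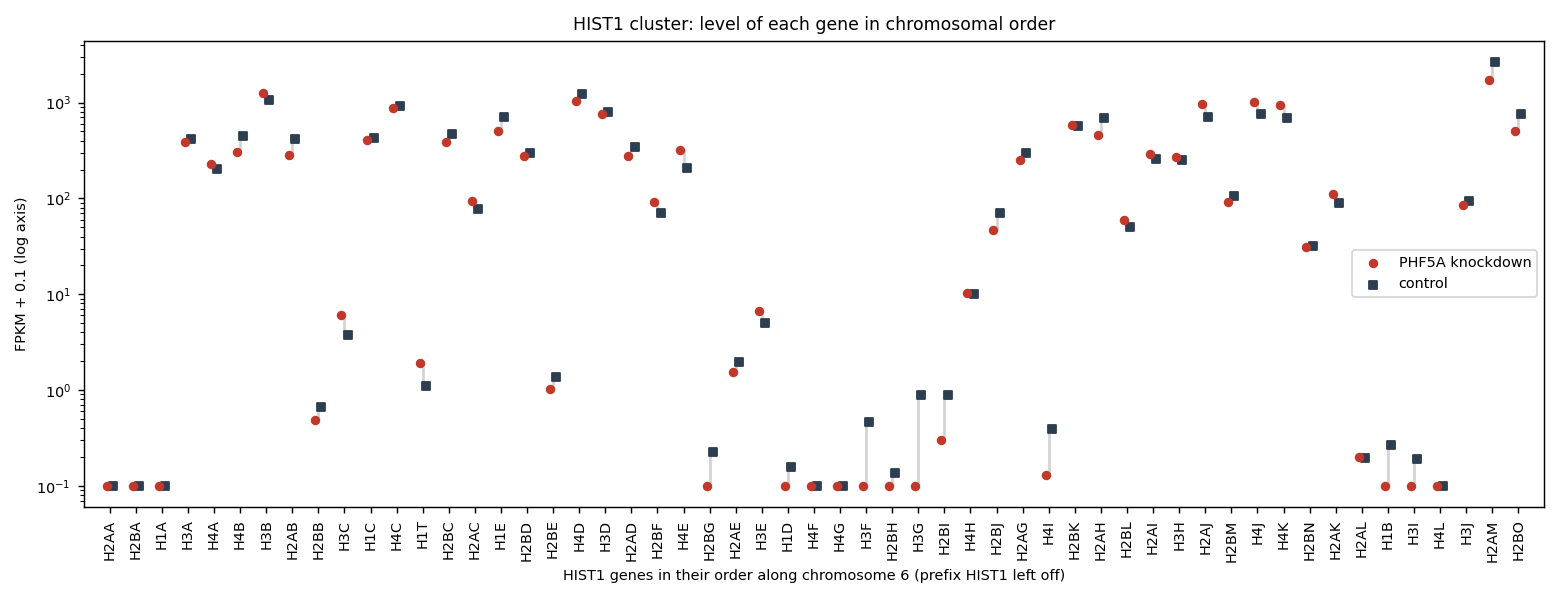
Level of each of the 55 HIST1 genes in the knockdown library (red circles) and the control library (dark squares), as FPKM + 0.1 on a log axis, in the order of the genes along chromosome 6. The 10 genes from HIST1H2BG to HIST1H2BI lie at or below 6.55 FPKM in both libraries, next to HIST1H4E at 317 FPKM in the knockdown library and 209 FPKM in the control.

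The 17 genes below 1 FPKM together had 12 counts in the knockdown library and 97 in the control, a share 7.88-fold lower in the knockdown library (4.31 to 15.8). Of the 11 with any count, 10 were lower in the knockdown library, and the other 6 were at 0 in both. HIST1H3G gave 50 of the control counts and none of the knockdown counts. By the exact interval its share was at least 12.7-fold lower there, and with the knockdown library set to a floor of 3 counts the ratio was 16.3-fold. Without HIST1H3G the remaining 16 genes had 12 against 47 counts, 3.82-fold lower in the knockdown library (2.0 to 7.91). All 15558 rows with a count and below 1 FPKM were 1.26-fold lower in sum (1.26 to 1.27), and 57.3% of them were lower in the knockdown library. These histone genes were selected for low values in both libraries, and their counts are a small share of the histone total.

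Among the 11 divergent H2A and H2B pairs, both genes were expressed in 9, and in 4 of the 9 both log2 ratios had the same sign. Relative to the median of expressed rows, both genes lay on the same side in 6 of the 9. The pair HIST1H2AM and HIST1H2BO lay together, at -0.62 and -0.58, and so did HIST1H2AI and HIST1H2BL, at 0.18 and 0.24. HIST2H2AC and HIST2H2BE were both near 0, at -0.02 and 0.02, with HIST2H2BE at 35.3 FPKM in the knockdown library and 34.9 in the control. HIST1H2AJ and HIST1H2BM lay apart, at 0.45 and -0.21, with HIST1H2BM at 908 counts in the knockdown library and 1076 in the control. HIST1H2AC and HIST1H2BC (0.28 and -0.27) and HIST1H2AD and HIST1H2BF (-0.28 and 0.38) were also on opposite sides of 0. HIST1H2AG and HIST1H2BJ were both lower in the knockdown library as deposited, at -0.25 and -0.59, as were HIST3H2A and HIST3H2BB, at -0.23 and -0.35. The 3 stretches given by sequence thus include a pair low together, a pair level together and a pair on opposite sides, and each holds an octamer, CCAAT boxes and at least 1 TATA box.

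**Figure D4:**
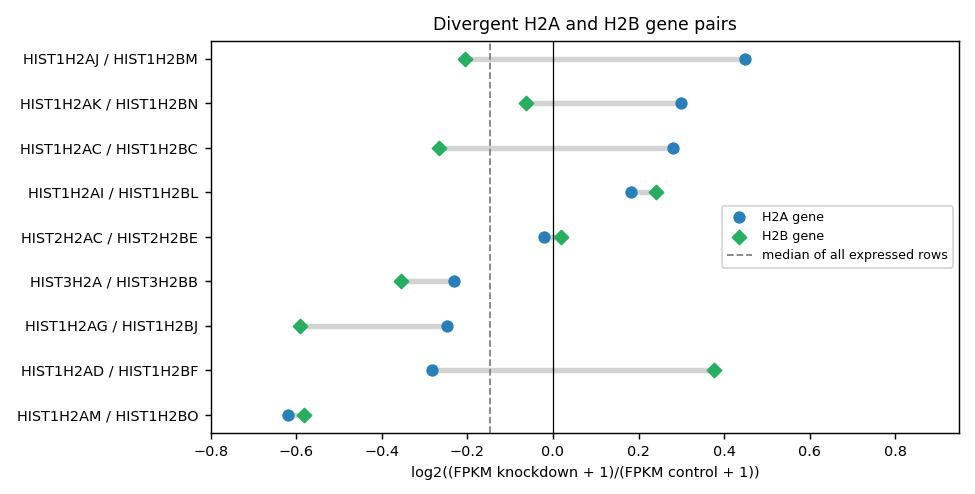
Log2 ratio of knockdown to control FPKM (1 added to each) of the H2A gene (blue circle) and the H2B gene (green diamond) in the 9 divergent pairs with both genes expressed, with the median of all expressed rows (-0.15) dashed. Both genes of HIST1H2AM / HIST1H2BO lie near -0.6, while those of HIST1H2AJ / HIST1H2BM lie at 0.45 and -0.21.

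Replication-independent histone genes, whose mRNAs are mostly polyadenylated and made outside S phase too, spread more widely. Of 19 listed, 10 were expressed, 0 were 2-fold or more higher and 2 were 2-fold or more lower in the knockdown library, with a median log2 ratio of -0.52, which is -0.37 relative to all expressed rows. Of all expressed rows 6.2% were lower by this threshold. With 0.1 added to each FPKM in place of 1, 3 of the 10 were lower, H1F0, H3F3B and H2AFV, against 12.6% of all rows lower and 5.24% higher. H1F0, a linker histone of resting cells, had 17.6 FPKM in the knockdown library and 48.8 in the control (-1.42). H3F3B, which encodes the variant H3.3, had 6.74 against 18.02 FPKM (-1.30). H1FX stood at 60.3 against 102 FPKM (-0.76), H2AFV at 1.31 against 2.95 (-0.78) and CENPA, the H3 variant of centromeres, at 3.64 against 6.68 (-0.73). In the other direction H2AFX, the variant phosphorylated at DNA breaks, had 336 against 259 FPKM (0.38) and H2AFY2, a macroH2A, 14.8 against 8.61 FPKM (0.72). H2AFZ, with 7.98 against 10.1 FPKM (-0.30), lay between. H3F3A, a gene with many processed pseudogene copies, had 7 counts in the knockdown library and 21 in the control, below the minimum. The 2 genes past 2-fold with 1 added thus belong to the H1 and H3 variants, whereas the expressed H1 and H3 genes of the clusters stayed within 2-fold as deposited.

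Of the factors that process and degrade histone mRNA, 23 of 32 in the table were expressed, with a median of -0.02, which is 0.13 relative to all expressed rows. None of these factors was 2-fold or more higher and 1 was lower, against 2.53% higher and 6.2% lower of all expressed rows. The one past 2-fold was LSM4, a subunit of Lsm rings that bind RNA 3′ ends, at 17.9 FPKM in the knockdown library and 41.7 in the control (-1.18). SLBP, which binds the stem-loop, had 320 counts in the knockdown library and 485 in the control, 2.72 against 4.01 FPKM (-0.43). The core proteins of small nuclear RNPs SNRPE and SNRPB stood at 1.29 against 0.655 FPKM (0.47) and 390 against 289 FPKM (0.43). LSM10, a subunit of the U7 particle that guides histone mRNA cleavage, was at 32.2 against 34.5 FPKM (-0.10), and ZNF473, a U7-associated zinc finger protein, at 0.794 against 1.12 FPKM (-0.24). LSM11 and CASP8AP2 were below 1 FPKM in both libraries.

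Of the regulators of histone gene transcription, 14 of 20 in the table were expressed, with a median of -0.14. With 1 added to each FPKM none was 2-fold or more higher or lower, against 2.53% and 6.2% of all expressed rows. With 0.1 added 1 was lower, CRAMP1, against 12.6% of all expressed rows. CRAMP1, linked to H1 gene expression, had 172 counts in the knockdown library and 725 in the control, 0.472 against 1.94 FPKM and a log2 ratio of -0.998. Its share of counts was 4.11-fold lower in the knockdown library (3.48 to 4.88), since the added 1 weighs on so low a level. E2F2 stood at 3.62 against 7.24 FPKM (-0.83), COIL, the scaffold of Cajal bodies, at 3.77 against 2.03 (0.65), and NELFB, a subunit of the elongation factor NELF, at 74.9 against 48.0 (0.63). NPAT, the coactivator of histone genes, was below 1 FPKM in both libraries, with 91 against 116 counts. Of 26 chaperones and importers of histones 21 were expressed, with a median of -0.29. None of the 21 was 2-fold or more higher and 1 was lower, against 2.53% higher and 6.2% lower of all expressed rows. With 0.1 added to each FPKM 3 of the 21 were lower, SSRP1, IPO4 and IPO9, which is 14.3% against 12.6% of all expressed rows. SSRP1, a subunit of the chaperone FACT and the gene past 2-fold under both, was at 10.6 against 25.9 FPKM (-1.21), while its partner SUPT16H was at 6.25 against 3.68 FPKM (0.63). The importins IPO4 and IPO9 stood at 8.76 against 18.03 FPKM (-0.96) and 4.83 against 10.1 FPKM (-0.93), and DAXX, a chaperone of H3.3, at 3.34 against 6.02 FPKM (-0.70).

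Of 39 S-phase replication genes 29 were expressed. With 1 added to each FPKM none was 2-fold or more higher or lower, against 2.53% and 6.2% of all expressed rows. With 0.1 added 1 was lower, CDC45, against 12.6% of all expressed rows. The median of the S-phase genes was -0.43, which is -0.28 relative to all expressed rows. Of the 29, 8 lay above the expressed median, against 32 of the 50 histone units. MCM5, a subunit of the replicative helicase, stood at 26.98 FPKM in the knockdown library and 44.7 in the control (-0.71). CDC45, which activates that helicase, was at 1.41 against 2.95 FPKM (-0.71), and FEN1, which trims Okazaki fragments, at 6.49 against 11.2 FPKM (-0.70). RFC2, a subunit of the clamp loader, was at 4.68 against 8.08 FPKM (-0.68). The S-phase list and the histone units thus had medians on opposite sides of the median of all expressed rows as deposited. With 1 added to each TPM, the histone units stood at -0.48 against -0.47 for all rows and the S-phase list at -0.78. The added 1 and the rows that pass the minimum enter this shift. No test of the difference between these lists was made.

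**Figure D5:**
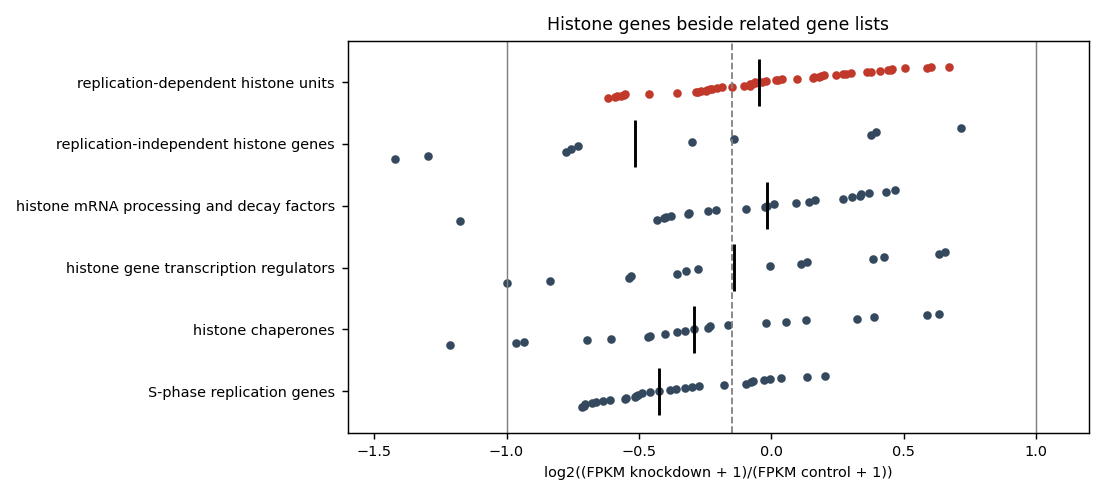
Log2 ratio of knockdown to control FPKM (1 added to each) for the 50 expressed histone units (red) and for the expressed members of the 5 related lists (dark), with each median as a black bar, the median of all expressed rows (-0.15) dashed and the 2-fold thresholds as grey lines. Histone units stay within the thresholds, and 29 S-phase genes have a median of -0.43.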

How the data were processed

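The deposited table gave 1 whole-number count and 1 FPKM value per gene and library, per the file headers. HISAT2 2.0.4 and Cuffdiff with hg38 (GRCh38) are named in the submitters' processing notes, and the libraries came from total RNA, per the labels. No source used here gives the annotation release or how reads with more than 1 match were counted. Of 50869 lines, 2 (1 broken entry) were left out.

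Members and lists were chosen with earlier results of these data known. The main measure was the log2 ratio of deposited FPKM after adding a pseudocount of 1, so that low genes show too small a change. Rows of 1 FPKM or more in either library entered it, called at 2-fold by size. Sums used counts over the library total, with 95% exact intervals. Reads are not independent molecules, so intervals and the floor of 3 counts cover counting error only. At these depths 1 library per group gives no measure of variation between cultures. The units named were the 4 most abundant of each class, the 5 highest and 5 lowest ratios with at least 50 counts, all H1, HIST2, HIST3 and HIST4 genes, and for the other lists the 4 largest ratios and a fixed set of key factors. H2AFY2 and SUPT16H were added after their values were seen. Others, named for copies, pairs or their place on the chromosome, were chosen after their values were seen. Transcripts came from GENCODE release 29 and promoter windows from RefSeq GRCh38.p14. The procedure was tested on simulated data. Alternatives were other pseudocounts, minimums, scalings, totals, unsummed copies and sums without their most abundant unit, with TPM for the sums added after seeing the data. Tools were matplotlib 3.10.9, scipy 1.17.1, pandas 2.3.3, numpy 2.4.6 and Python 3.11.15.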

Additional observations from a re-analysis of the deposited data

Results flagged for a closer look

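Rows of 2 pseudogenes, which the comparison leaves out, had more counts in the knockdown library than in the control beyond counting error. They came from the 6 pseudogenes by description and the 12 rows named PS. The share of all rows with such an interval was not computed, so this shows nothing particular to them. HIST1H3PS1 on chromosome 6 had 115 counts in the knockdown library and 60 in the control, 10.6 against 5.42 FPKM, a ratio of shares of 1.97 (95% exact interval 1.43 to 2.73). HIST2H2BD on chromosome 1 had 285 counts in the knockdown library and 191 in the control, 22.3 against 14.6 FPKM, a ratio of 1.53 (1.27 to 1.85). HIST2H2BD lies beside the HIST2 copies and its row is spanned by the HIST2H2BE row. The part of these overlaps in its count was not tested.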

How the results depend on the processing

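No paired analysis was possible because each group held only 1 library. The log2 ratios of the sums are given in the order all histones, H1, H2A, H2B, H3, H4, HIST1, HIST2 and HIST3. Over the protein-coding total they were 0.10, -0.16, 0.017, 0.043, 0.28, 0.24, 0.066, 0.17 and -0.10. Centred on the expressed median they were 0.093, -0.17, 0.0066, 0.032, 0.27, 0.22, 0.055, 0.16 and -0.11. Rescaled to TPM, an alternative added for the sums after seeing the data, they were -0.50, -0.73, -0.59, -0.62, -0.33, -0.35, -0.53, -0.43 and -0.66. Summed FPKM moved all histones to -0.083, H2A to -0.16, H2B to -0.20, H3 to 0.089, HIST1 to -0.11 and HIST2 to -0.013. Without the most abundant unit, H1 was -0.078 (HIST1H1E), H2A -0.16, H2B -0.073, H3 0.067, H4 0.16, HIST1 -0.036 (HIST1H2AM), HIST2 0.045 and HIST3 -0.36 (HIST3H2A). The median of the histone units was 0.10 after centring, 0.20 after upper-quartile scaling and -0.48 with TPM. With TPM 4 units were 2-fold or more lower, HIST1H2AM, HIST1H2BJ, HIST1H2BO and HIST1H3G. With copies not summed 1 row was higher (HIST2H2AA3) and 1 lower (HIST2H4B). At 1.5-fold 3 units were higher and 2 lower. List medians after centring and with TPM were -0.37 and -0.89 for replication-independent histones, 0.13 and -0.43 for processing factors, 0.0052 and -0.59 for transcription regulators, -0.14 and -0.64 for chaperones, and -0.28 and -0.78 for S-phase genes. With a minimum of 5 FPKM, the first 3 of these lists had medians of -0.73, -0.15 and 0.12. Of 65 named genes, a pseudocount of 0.1 left 57 within their counting interval and moved 8, centring left 19 and TPM 10. All named genes past 2-fold were lower in the knockdown library, and these shifts could not change their sign. Below 2-fold, signs did change. With TPM, HIST1H3B went from 0.27 to -0.15 and the HIST2H3A and HIST2H3C pair from 0.19 to -0.23. With centring HIST1H1C went from -0.08 to 0.07. At a pseudocount of 0.1, chosen for list counts after seeing the data, CRAMP1 (-1.83), H2AFV (-1.12), CDC45 (-1.02), IPO4 (-1.03) and IPO9 (-1.05) were also 2-fold or more lower. The histone units had 0 higher and 0 lower at that pseudocount, against 5.24% higher and 12.6% lower of all expressed rows. The causes of these shifts were not tested. Counts limit the 17 genes below 1 FPKM, for which 12 and 97 counts in all were available in the knockdown and control libraries.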
